A study of Mus musculus with 25 samples.

Results

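The genes described here were 7 receptors of chemokines, the small secreted proteins that steer migrating leukocytes: Cx3cr1, Ccr1, Ccr2, Ccr3, Ccr7, Ccrl2 and Cxcr4. They were chosen by gene symbol, 7 of the 24411 genes counted in every library, and all 7 were read in every condition. Chemokine receptors span the membrane several times and most of them signal through inhibitory G proteins, so that a cell moves up a gradient of the ligand. Macrophages use them to enter, stay in or leave a tissue, and activation is known to change which of them a macrophage carries. Ccrl2 is an atypical member of the family, which binds the chemoattractant chemerin and presents it to other cells without known signalling of its own.

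The RNA came from 25 libraries of 9 conditions. Bone marrow-derived macrophages (BMDMs), grown from C57BL/6 mouse marrow with M-CSF (25 ng/ml, 4 days), gave 3 libraries in each of 7 conditions: an untreated control cultured for 4 h, IFN-γ (100 U/ml) together with LPS (100 ng/ml) for 1, 4, 12 or 24 h (hereafter IFN-LPS, and called IFN-γ-primed LPS in the study), IL-4 (10 ng/ml) for 12 h and IL-13 (10 ng/ml) for 12 h. LPS is a bacterial cell wall component that signals through TLR4, and IFN-LPS is the classical or M1 activation, whereas IL-4 and IL-13 give the alternative or M2 activation. RAW264.7, an established mouse macrophage-like cell line, gave 2 control libraries cultured for 4 h and 2 libraries given LPS (100 ng/ml) but no IFN-γ for 4 h. The same 3 BMDM control libraries served every BMDM comparison, and their time matched only the 4 h point. The labels give 1 duration for both agents, and how long IFN-γ came before LPS, if at all, is not given in the sources used here. The methods call the BMDM triplicates independent RNA samples but, like the labels, do not say whether they came from separate mice or cultures, so the p-values measure the spread between these libraries.

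Libraries held 2378639 to 3357300 sense-strand counts, of which the ribosomal RNA precursor Rn45s took 20.1 to 39.8%, and 1502618 to 2532496 counts were left without it. Levels are given as CPM, the counts per 1000000 counts without Rn45s, and fold changes are from edgeR on TMM-scaled totals. TMM mattered here: with plain totals the median log2 fold change over all genes after 1, 4, 12 and 24 h of IFN-LPS was −0.22, −0.61, −0.34 and −0.20, against −0.07 to 0.02 with TMM. The share of higher genes among all called ones was accordingly 24.3 to 36.0% with plain totals and 50.4 to 56.6% with TMM at these times. It also moved in the other comparisons with IFN-LPS or LPS: from 51.0 to 27.0% for 4 h against 1 h, from 46.4 to 65.6% for 12 h against 4 h, from 37.4 to 52.2% for 24 h against 12 h, from 52.2 to 29.7% for 12 h against IL-4, from 51.5 to 28.1% against IL-13, and from 54.0 to 30.4% in RAW264.7. A gene was called changed at a Benjamini-Hochberg adjusted p at or under 0.01 over all genes tested. In BMDMs all 8 listed macrophage markers were present in every condition, while RAW264.7 libraries lacked Mertk. Markers of other cells were not all absent from the BMDMs. The 4 stroma markers summed to 46.8 to 113 CPM per library, mostly Col1a1, Col1a2 and Dcn, and the granulocyte markers to 13.4 to 40.9 CPM, mostly S100a8 and S100a9. The dendritic cell marker Clec9a went from 0.393 CPM in control to 47.7 CPM at 1 h of IFN-LPS, while Flt3 was at 0 in 6 of the 7 BMDM conditions. T cell markers summed to 2.37 to 15.3 CPM with Cd3d and Cd3e at 0, and B cell and mast cell markers stayed under 1 CPM in sum. Their part in the results was not tested. The third IFN-LPS 12 h library held the highest CPM of its group for Cx3cr1, Ccr1, Ccr2, Ccr3 and Ccr7 and the lowest for Ccrl2 and Cxcr4, so calls that rest on it are also given without it.

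**Figure D1:**
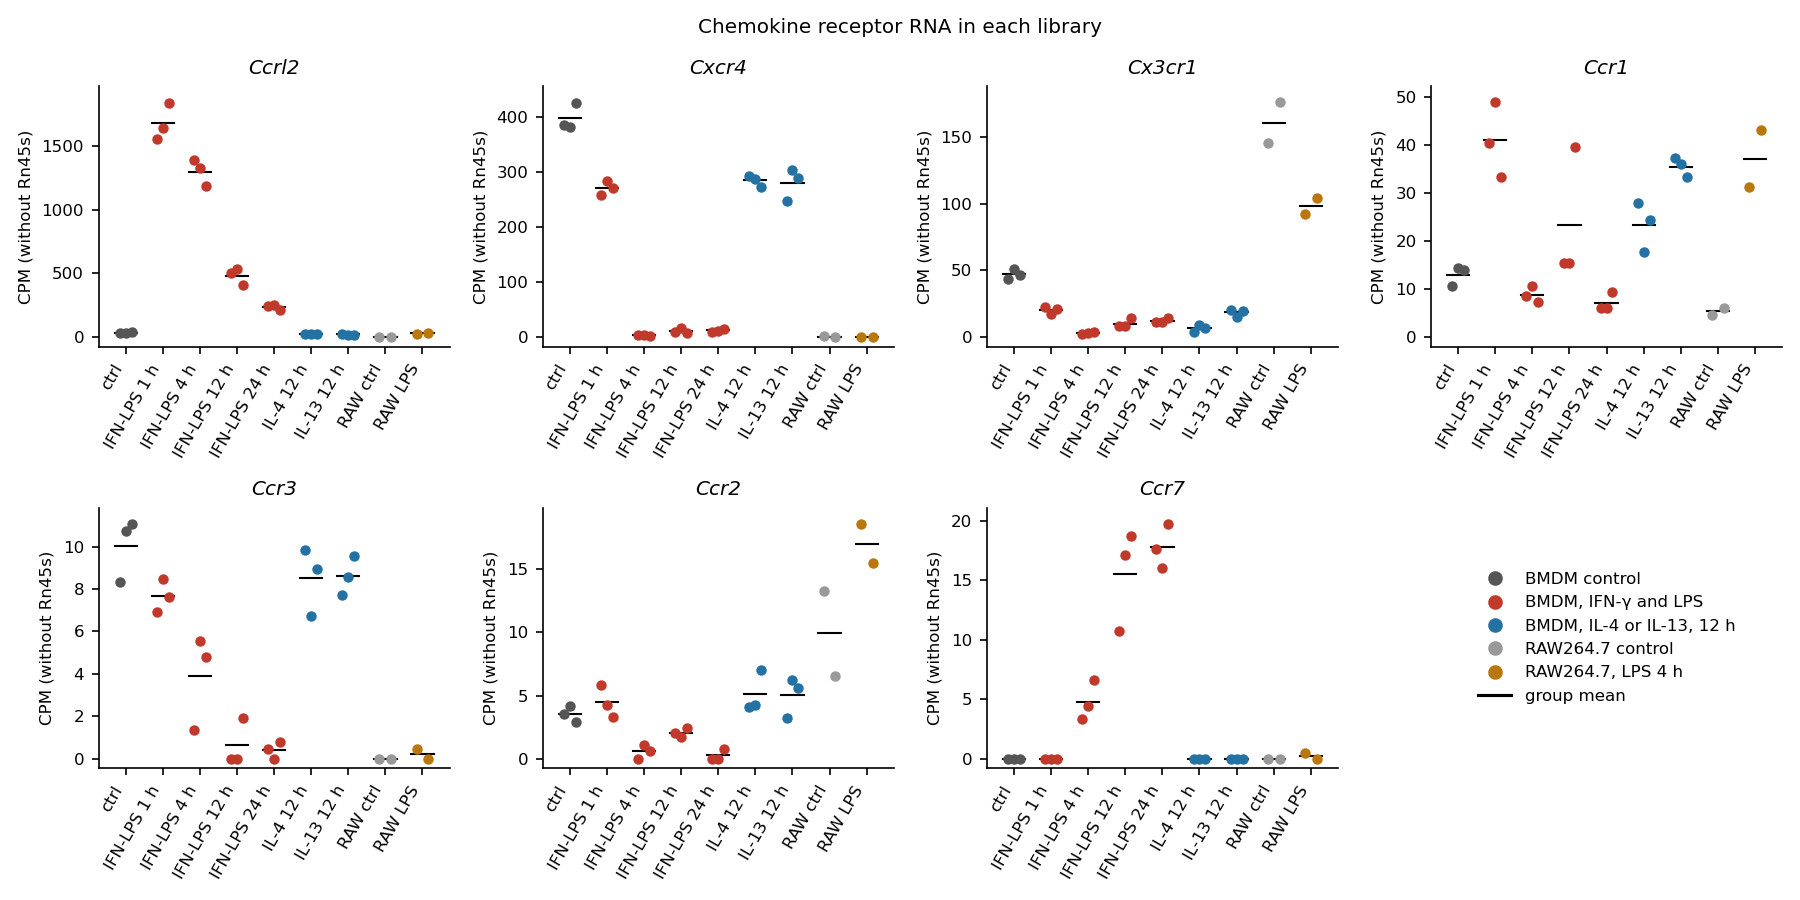
CPM without Rn45s (linear axes that differ between panels) of the 7 receptors in each of the 25 libraries, by condition; points are libraries and black lines are group means. Ccrl2 stood above all other conditions in the 12 IFN-LPS libraries, Cxcr4 was between 249 and 427 CPM in control, 1 h, IL-4 and IL-13 BMDMs and at or under 15.99 CPM elsewhere, and Ccr7 was found in BMDMs from 4 h of IFN-LPS on.

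Ccrl2 was higher than control at every time of IFN-LPS. The gene lies at chr9:111054834-111057518 (GRCm38.p6). It was at 32.1, 28.6 and 43.1 CPM in the control BMDM libraries and at 1552, 1642 and 1838 CPM after 1 h of IFN-LPS. The libraries of 4 h held 1385, 1323 and 1182 CPM, those of 12 h 505, 534 and 411 CPM, and those of 24 h 241, 252 and 214 CPM. No library of any IFN-LPS time overlapped the control range, and the level was lower at each later time. Relative to control, Ccrl2 was 55.1-fold higher at 1 h (log2 5.78 ± 0.13 SE, adjusted p = 2.3e-36), 53.8-fold at 4 h (5.75 ± 0.13, adjusted p = 1.2e-36), 17.2-fold at 12 h (4.10 ± 0.13, adjusted p = 1.2e-30) and 7.91-fold at 24 h (2.98 ± 0.13, adjusted p = 1.2e-24). Between 1 and 4 h the change missed the threshold with TMM (log2 −0.03 ± 0.09, adjusted p = 0.79), although the CPM ranges did not overlap, and with plain totals it was called (log2 −0.37, adjusted p = 0.0008). Ccrl2 fell from 4 to 12 h (3.13-fold, adjusted p = 4.2e-19) and from 12 to 24 h (2.17-fold, adjusted p = 2.9e-12).

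Cxcr4, the receptor of Cxcl12 that holds hematopoietic cells in the marrow, was lower at every time of IFN-LPS. The gene lies at chr1:128588199-128592299 (GRCm38.p6). Control libraries held 386, 383 and 427 CPM and 1 h libraries 258, 285 and 272 CPM. By 4 h the level was 3.99, 3.34 and 1.81 CPM, from 6, 6 and 3 counts. It was 9.20, 15.99 and 6.74 CPM at 12 h and 9.77, 11.5 and 15.4 CPM at 24 h. All 4 times lay under the control range without overlap, and the 4 h libraries lay lowest. The fold change was 1.29-fold lower at 1 h (log2 −0.37 ± 0.10, adjusted p = 0.0038), 89.9-fold at 4 h (−6.49 ± 0.21, adjusted p = 6.5e-31), 30.8-fold at 12 h (−4.95 ± 0.16, adjusted p = 1.5e-30) and 27.5-fold at 24 h (−4.78 ± 0.15, adjusted p = 5.6e-31). Between 1 and 4 h alone it fell 69.7-fold (adjusted p = 8.0e-29). From 4 to 12 h Cxcr4 rose 2.92-fold (log2 1.54 ± 0.38, adjusted p = 0.00063), and from 12 to 24 h no change was called (log2 0.16 ± 0.25, adjusted p = 0.70). The call at 1 h was lost without control library 3 (log2 −0.31, adjusted p = 0.041), 1 h library 1 (−0.31, adjusted p = 0.042) or 1 h library 3 (−0.35, adjusted p = 0.021). The rise from 4 to 12 h was lost without 4 h library 3 (log2 1.27, adjusted p = 0.011) or 12 h library 2 (1.17, adjusted p = 0.018).

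The 250 bases before a listed transcription start are shown for Ccrl2 (chr9:111057519-111057768, minus strand) and Cxcr4 (chr1:128592300-128592549, minus strand), which rose and fell at all 4 times of IFN-LPS, and for Ccr3 (chr9:124021721-124021970, plus strand), which also fell. They are RefSeq sequences on GRCm38.p6, written 5′ to 3′ on the gene's strand, with the bases of a motif match in capitals. For Ccrl2 the first of 3 listed starts is shown, and 6 of the 7 receptors had an entry. The Ccr3 stretch lies inside the RefSeq span of the gene (chr9:124017825-124031692), so its listed start is not the first base of that span. The same holds for the stretch of Ccr2 (gene at chr9:124101918-124109140).
Ccrl2: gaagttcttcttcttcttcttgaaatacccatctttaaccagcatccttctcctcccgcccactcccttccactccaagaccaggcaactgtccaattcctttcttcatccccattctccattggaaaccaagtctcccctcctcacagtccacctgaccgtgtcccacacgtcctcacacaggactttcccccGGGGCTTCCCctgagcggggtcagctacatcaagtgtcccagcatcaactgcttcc
Cxcr4: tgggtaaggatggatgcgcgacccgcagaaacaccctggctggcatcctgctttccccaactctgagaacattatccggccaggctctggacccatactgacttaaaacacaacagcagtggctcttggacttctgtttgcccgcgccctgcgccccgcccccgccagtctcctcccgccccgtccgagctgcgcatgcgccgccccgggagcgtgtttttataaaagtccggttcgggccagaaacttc
Ccr3: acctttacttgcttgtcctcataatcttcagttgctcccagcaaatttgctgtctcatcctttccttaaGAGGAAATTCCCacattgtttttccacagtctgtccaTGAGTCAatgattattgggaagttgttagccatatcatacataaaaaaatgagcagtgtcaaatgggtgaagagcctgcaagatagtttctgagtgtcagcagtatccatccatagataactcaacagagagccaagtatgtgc
Both strands were searched for the NF-κB (kappa B) consensus, the AP-1 site (TGACTCA or TGAGTCA), the interferon-stimulated response element ISRE (GAAANNGAAA), the GAS element (TTCNNNGAA) and the ETS core of PU.1 (GAGGAA). The Ccrl2 stretch held 1 kappa B match at −56 to −47 from the start, and the stretches of its other 2 listed starts held no searched motif. The Ccr3 stretch held a kappa B match on the minus strand at −179 to −170, which overlapped a PU.1 core at −181 to −176, and an AP-1 site at −144 to −138. No searched motif was found in these letters of Cxcr4, nor in the stretches of Cx3cr1 and Ccr2, which are not shown. The Ccr1 stretch, also not shown, held a PU.1 core at −129 to −124. Over 32536 distinct stretches of the same length in the table, 3.92% held a kappa B match, 4.45% an AP-1 site, 2.98% an ISRE, 7.04% a GAS element and 23.4% a PU.1 core. A match describes the letters only.

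Cx3cr1, the receptor of the membrane-bound chemokine fractalkine (Cx3cl1) and a mark of monocytes and many tissue macrophages, was lower than control at every IFN-LPS time. Control libraries held 43.4, 51.2 and 46.6 CPM, and 1 h libraries held 22.9, 17.5 and 20.9 CPM. The level was 2.66, 2.78 and 4.21 CPM at 4 h, 8.18, 7.99 and 14.4 CPM at 12 h, and 11.2, 11.04 and 14.2 CPM at 24 h. As for Cxcr4, the 4 h libraries were lowest and none of the treated libraries reached the control range. Relative to control the receptor fell 2.01-fold at 1 h (log2 −1.01 ± 0.18, adjusted p = 1.5e-05), 9.98-fold at 4 h (−3.32 ± 0.29, adjusted p = 2.6e-14), 3.66-fold at 12 h (−1.87 ± 0.21, adjusted p = 1.0e-10) and 3.29-fold at 24 h (−1.72 ± 0.19, adjusted p = 1.5e-10). The rise from 4 to 12 h was called (2.73-fold, log2 1.45 ± 0.37, adjusted p = 0.0012), but not without 12 h library 3 (log2 1.08, adjusted p = 0.032) or 4 h library 2 (1.35, adjusted p = 0.010136). No change was called from 12 to 24 h (log2 0.15 ± 0.25, adjusted p = 0.73). The summed level of the 5 monocyte markers moved otherwise, with 9.51 to 14.6 CPM in control, 126 to 154 CPM at 4 h and 234 to 276 CPM at 24 h, most of the last being Ly6c2. Their part in the Cx3cr1 values was not tested.

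Ccr1, Ccr3 and Ccr2 lie within 147 kb of chromosome 9, with Ccr1l1 between Ccr1 and Ccr3 (123962126 to 124109140, GRCm38.p6), and their levels took different courses. Ccr1, a receptor of Ccl3, Ccl5 and related inflammatory chemokines, was at 10.7, 14.3 and 14.0 CPM in control and 40.4, 48.9 and 33.3 CPM at 1 h. It was at 8.65, 10.6 and 7.22 CPM at 4 h, 15.3, 15.4 and 39.5 CPM at 12 h, and 6.05, 5.98 and 9.48 CPM at 24 h. The level was thus high at 1 h, and at 12 h it was mainly 1 library that stood above the others. Ccr1 rose 3.53-fold at 1 h (log2 1.82 ± 0.30, adjusted p = 3.5e-05) and was 3.59-fold lower at 4 h than at 1 h (adjusted p = 6.7e-05). Against control the 4 h value was log2 −0.02 ± 0.42 (adjusted p = 0.96) and the 24 h value −0.61 ± 0.40 (adjusted p = 0.21), although the CPM of both lay under the control range. At 12 h it was 2.27-fold above control (log2 1.18 ± 0.33, adjusted p = 0.0037), 2.31-fold above 4 h (1.21 ± 0.36, adjusted p = 0.0087) and 3.47-fold above 24 h (adjusted p = 0.00044).

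Without the third 12 h library, the Ccr1 difference at 12 h was log2 0.54 against control (adjusted p = 0.096) and 0.55 against 4 h (adjusted p = 0.13). The 12 h call against control was also lost without control library 1 (adjusted p = 0.020), control library 3 (0.010169) or 4 h library 1 (0.011) and with plain totals (log2 0.87, adjusted p = 0.017). The call of 12 h against 4 h held in 4 of the 15 fits that each left out 1 library of the time course. The fall from 12 to 24 h was log2 −1.79 ± 0.35, and still called at −1.14 without the third 12 h library.

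Ccr3, the eotaxin receptor best known from eosinophils, was found at a low level in control BMDMs and was nearly absent late in the IFN-LPS course. Counts were 14, 18 and 19 in control, 13, 14 and 16 at 1 h, and 2, 10 and 8 at 4 h. They were 0, 0 and 4 at 12 h and 1, 0 and 2 at 24 h. In CPM this was 10.0 ± 1.49 (SD, n = 3) in control, then 7.66 ± 0.776, 3.90 ± 2.26, 0.642 ± 1.11 and 0.418 ± 0.397 at the 4 times. The 12 and 24 h libraries were all under the control range. Neither 1 h (log2 −0.21 ± 0.36, adjusted p = 0.70) nor 4 h (−0.78 ± 0.43, adjusted p = 0.11) passed the threshold, although 4 h did with plain totals (log2 −1.31, adjusted p = 0.0052). Ccr3 was lower at 12 h (fitted log2 −3.44 ± 0.60, adjusted p = 2.7e-06) and at 24 h (−4.11 ± 0.61, adjusted p = 1.4e-07), and both calls held without any 1 library. Ccr3 passed the count filter through the control and 1 h libraries, where it was high, so its being called lower was partly set by the filter. The 3 counts at 24 h were 23.0 times fewer per library total than the 51 in control, with a 95% interval of 7.42 to 115 (exact, for counting error only). From 4 to 12 h it fell 6.30-fold (log2 −2.65 ± 0.72, adjusted p = 0.0021), a call lost without 4 h library 2 or 3 or 12 h library 1 or 2 (log2 −2.52 to −2.09, adjusted p = 0.014 to 0.027). All 4 counts of the 12 h group came from library 3, and without it that group was at 0. The eosinophil markers moved with it: their summed level was 12.2 to 20.9 CPM in control and 0.0 to 1.86 CPM at 24 h, nearly all of it Siglecf, while Epx and Il5ra were at 0 in control. Their part in the fall of Ccr3 was not tested, and in bulk RNA fewer cells of a type and less RNA per cell cannot be told apart.

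Ccr2, the receptor of Ccl2 that brings monocytes out of the marrow, had the fewest counts of the receptors found in control BMDMs and did not pass the filter on low counts in the time course. Its counts were 6, 7 and 5 in control, 11, 7 and 7 at 1 h, 0, 2 and 1 at 4 h, 4, 3 and 5 at 12 h, and 0, 0 and 2 at 24 h. The libraries of 4 h (0.572 ± 0.557 CPM, n = 3), 12 h (2.05 ± 0.347 CPM) and 24 h (0.263 ± 0.456 CPM) lay under the control range of 2.91 to 4.17 CPM, and at 1 h the ranges overlapped. Per library total, the counts were 5.86 times fewer than control at 4 h (95% interval 1.71 to 31.1) and 12.2 times at 24 h (2.91 to 108). With no filter beyond 1 count, edgeR called Ccr2 lower at 24 h against control (log2 −3.08, adjusted p = 0.00094) and at 4 h against 1 h (−2.45, adjusted p = 0.0056), and not at 4 h against control (−1.92, adjusted p = 0.047). The fit of all 21 BMDM libraries made the same calls (adjusted p = 0.00062, 0.0041 and 0.031).

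Ccr7, the receptor of Ccl19 and Ccl21 that leads activated dendritic cells to lymph nodes, appeared during IFN-LPS. Every control and 1 h library had 0 counts. The 4 h libraries had 5, 8 and 11 counts, the 12 h libraries 21, 30 and 39, and the 24 h libraries 38, 35 and 50. The level was 4.80 ± 1.67 CPM at 4 h, 15.5 ± 4.25 CPM at 12 h and 17.8 ± 1.83 CPM at 24 h (SD, n = 3). Taking 3 counts over the 3 control libraries as a floor (0.591 CPM), Ccr7 was at least 8.13-fold higher at 4 h, 26.3-fold at 12 h and 30.2-fold at 24 h. The tests against control gave adjusted p = 4.5e-07, 1.2e-12 and 2.2e-13. Ccr7 passed the count filter through the 12 and 24 h libraries, where it was high. With controls at 0 counts, these p-values add no support beyond the counts themselves. Between 4 and 12 h Ccr7 rose 2.745-fold (log2 1.46 ± 0.33, adjusted p = 0.00034), and from 12 to 24 h no change was called (log2 0.12 ± 0.24, adjusted p = 0.79). The summed level of the 6 dendritic cell markers was 46.2 to 50.8 CPM at 1 h and 10.6 to 14.0 CPM at 4 h. It was 4.81 to 7.42 CPM at 12 h and 0.395 to 0.930 CPM at 24 h. Most of it was Clec9a, and Flt3 was at 0 throughout the time course. The part of these markers in the Ccr7 values was not tested.

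**Figure D2:**
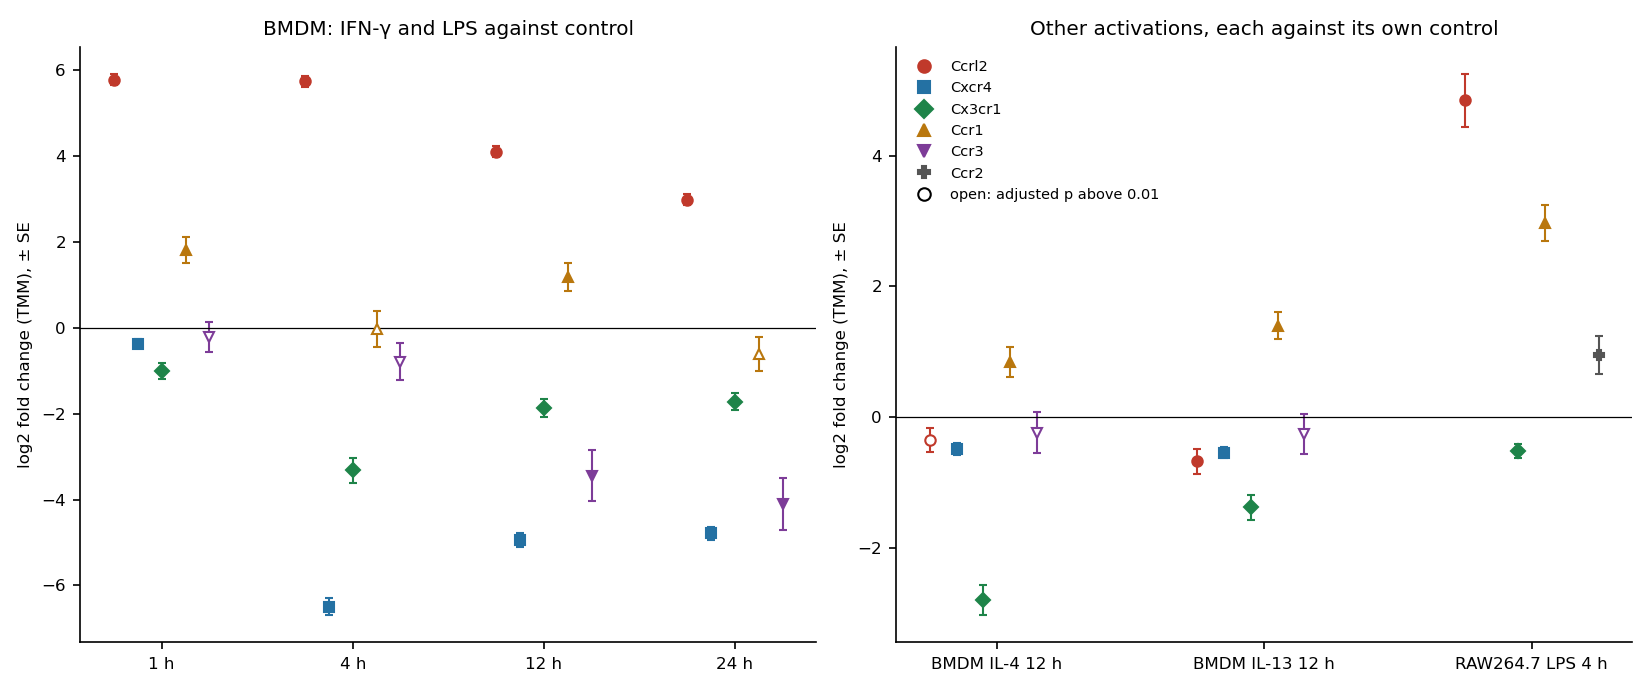
Log2 fold change with TMM scaling (points, bars are ± SE) of the receptors against their own control, at 4 times of IFN-LPS in BMDMs (left) and with IL-4, IL-13 or, in RAW264.7, LPS (right); filled points have an adjusted p at or under 0.01, Ccr7 is left out because its controls had 0 counts, and receptors that failed the count filter are not drawn. Ccrl2 lies above 0 and Cxcr4 and Cx3cr1 lie below 0 at all 4 IFN-LPS times, with the lowest points of Cxcr4 and Cx3cr1 at 4 h.

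As counts, 2 of 6 tested receptors were called higher at 1 h (Ccr1, Ccrl2), where 14.7% of all 9568 genes tested were, and 2 lower (Cx3cr1, Cxcr4), against 11.3% of all genes. Ccr7, counted among the tested, had 0 counts in control and at 1 h and could not be called at 1 h. It passed the filter through the 12 and 24 h libraries, where it was high. Ccr3 passed through the control and 1 h libraries, where it was high. At 4 h 2 were higher (Ccr7, Ccrl2; 26.0% of all genes) and 2 lower (Cx3cr1, Cxcr4; 25.6%). At 12 h all 6 were called, 3 higher (Ccr1, Ccr7, Ccrl2; 23.9%) and 3 lower (Cx3cr1, Ccr3, Cxcr4; 23.4%). At 24 h 2 were higher (Ccr7, Ccrl2; 23.9%) and 3 lower (Cx3cr1, Ccr3, Cxcr4; 21.3%). Between neighbouring times, 4 h against 1 h had 1 receptor higher (19.8% of all genes) and 3 lower (19.1%), 12 h against 4 h had 4 higher (16.7%) and 2 lower (19.2%), and 24 h against 12 h had 0 higher (5.31%) and 2 lower (8.90%). From 12 to 24 h edgeR called 0 receptors higher, as did DESeq2, and 0 were higher at an unadjusted p under 0.05. With 6 receptors tested, these counts are too few to set them apart from the shares over all genes.

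Compared per length of transcript, the makeup of the 7 receptors turned over. In control BMDMs Cxcr4 stood at 220 ± 13.5 CPM per kb (SD, n = 3), Ccrl2 at 13.3 ± 2.91, Cx3cr1 at 10.4 ± 0.875, Ccr1 at 4.59 ± 0.702, Ccr3 at 3.07 ± 0.456, Ccr2 at 0.525 ± 0.0933 and Ccr7 at 0. Cxcr4 made 87.3% of their sum and Ccrl2 5.28%. After 1 h of IFN-LPS Ccrl2 was at 646 ± 56.3 CPM per kb, or 79.0% of the sum, and at 4 h it made 98.2%. At 24 h Ccrl2 made 81.1%, Ccr7 8.06% and Cxcr4 6.04%. The summed level was 252 CPM per kb in control and 818, 508, 211 and 112 at the 4 times of IFN-LPS. These sums are of plain CPM without TMM, and with TMM the Ccrl2 change for 4 h against 1 h was log2 −0.03 (adjusted p = 0.79). Exon lengths are of GENCODE M21, and the release used for counting is not given in the sources used here.

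**Figure D3:**
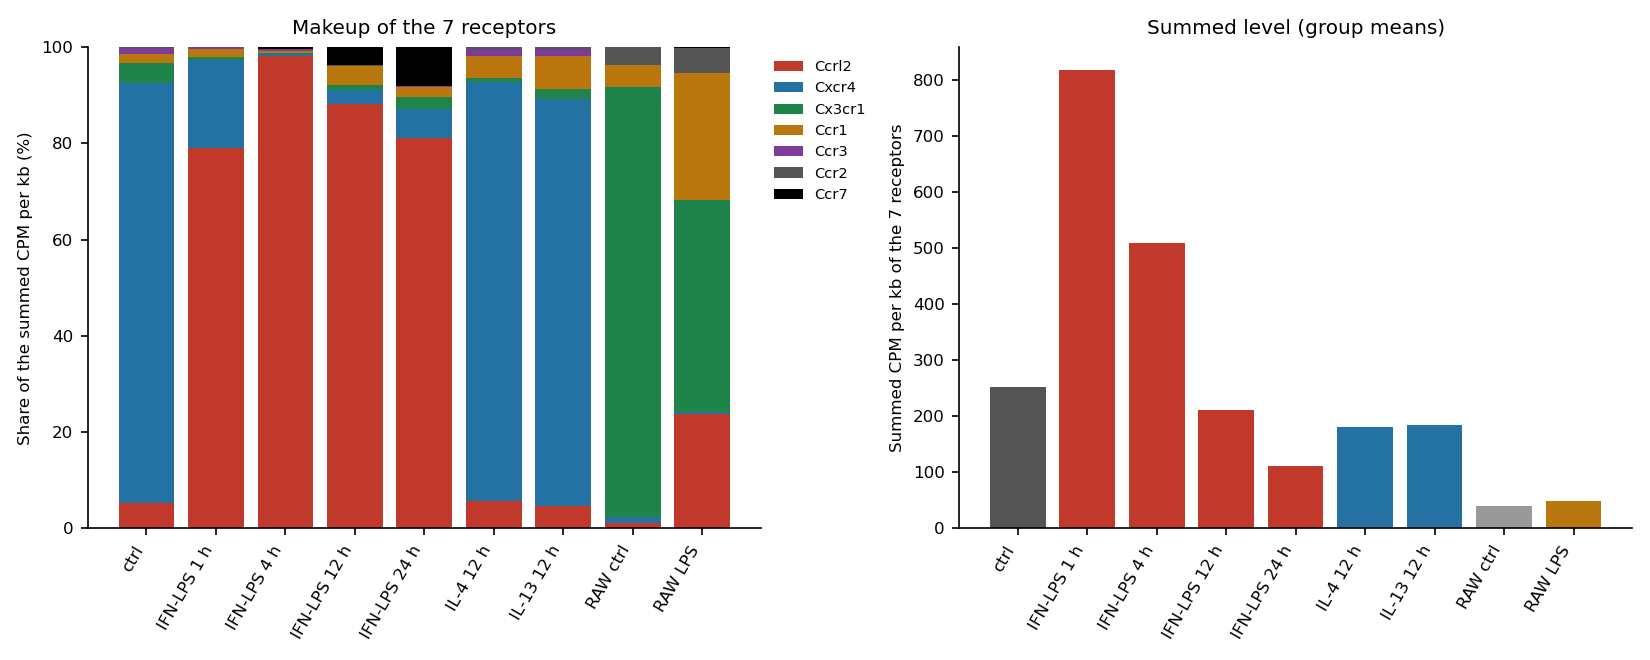
Share of each receptor in the summed CPM per kb of the 7 receptors (left, %) and that sum (right), from group means of 3 BMDM or 2 RAW264.7 libraries. Cxcr4 made 84.4 to 87.3% in control, IL-4 and IL-13 BMDMs, Ccrl2 79.0 to 98.2% after IFN-LPS, and Cx3cr1 89.2% in untreated RAW264.7.

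With IL-4 or IL-13 for 12 h, BMDMs had less Cx3cr1 and Cxcr4 and more Ccr1 than control, and no Ccr7 was found. With IL-4, 1 of 5 tested receptors was called higher (Ccr1), against 4.38% of all 9252 genes tested, and 2 lower (Cx3cr1, Cxcr4), against 3.25%. With IL-13, 1 was higher (Ccr1; 5.61% of all genes) and 3 lower (Cx3cr1, Ccrl2, Cxcr4; 4.49%). Both cytokines were compared with the same controls. These controls, with the 1, 4 and 12 h IFN-LPS libraries, also differed from the IL-4, IL-13 and 24 h libraries in the share of counts on the antisense strand (1.17 to 1.41% against 1.017 to 1.12%, Rn45s left out), so this difference and the effect of the cytokine, or of 24 h of IFN-LPS, cannot be told apart.

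Cx3cr1 was at 4.06, 9.15 and 7.04 CPM with IL-4 and 20.6, 15.4 and 19.7 CPM with IL-13, against 43.4 to 51.2 CPM in control. All 3 groups were separate. It was 6.98-fold lower with IL-4 (log2 −2.80 ± 0.23, adjusted p = 4.5e-14) and 2.61-fold lower with IL-13 (−1.39 ± 0.19, adjusted p = 4.6e-08). The level with IL-13 was 2.67-fold above that with IL-4 (log2 1.42 ± 0.28, adjusted p = 0.0067). This was the only receptor called between both cytokines, where 0.0865% of all genes were higher with IL-13 and 0.0216% lower. The call was lost in 5 of the 9 fits that left out a library: without IL-4 library 1 (log2 1.13, adjusted p = 0.15), 2 (1.71, adjusted p = 0.011) or 3 (1.46, adjusted p = 0.056), or IL-13 library 1 (1.35, adjusted p = 0.013) or 3 (1.37, adjusted p = 0.042), with the direction kept in all of them.

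Ccr1 was at 27.8, 17.7 and 24.3 CPM with IL-4 and 37.3, 35.9 and 33.2 CPM with IL-13, all above the 10.7 to 14.3 CPM of control. It was 1.78-fold higher with IL-4 (log2 0.84 ± 0.23, adjusted p = 0.0085) and 2.64-fold with IL-13 (1.40 ± 0.21, adjusted p = 6.6e-07). Between both cytokines the difference was log2 0.56 ± 0.19 (adjusted p = 0.38). The IL-4 call was lost without control library 1, 2 or 3 (adjusted p = 0.062, 0.016 and 0.018) or IL-4 library 1 or 3 (0.086 and 0.040), and with DESeq2 (0.047). With counts of both strands, or with all 21 BMDM libraries in 1 fit, 2 receptors rather than 3 were called with IL-4. The IL-13 call held without any 1 library.

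Cxcr4 was at 294, 288 and 274 CPM with IL-4 and 249, 304 and 289 CPM with IL-13, under the 383 to 427 CPM of control. The falls were 1.40-fold (log2 −0.49 ± 0.09, adjusted p = 5.1e-05) and 1.46-fold (−0.54 ± 0.09, adjusted p = 4.7e-06), and the cytokines differed by log2 −0.06 ± 0.09 (adjusted p = 0.96). Ccrl2 was at 25.5, 28.0 and 28.2 CPM with IL-4 (log2 −0.35 ± 0.18, adjusted p = 0.23), just under the 28.6 to 43.1 CPM of control, and at 27.0, 20.5 and 19.7 CPM with IL-13, 1.60-fold lower (−0.68 ± 0.19, adjusted p = 0.0083). The Ccrl2 call with IL-13 held in 2 of 9 fits without 1 library, was log2 −0.48 (adjusted p = 0.15) without control library 3, and was not made by DESeq2 (adjusted p = 0.064). Ccr3 overlapped its control range, with 8.51 ± 1.62 CPM for IL-4 (log2 −0.24 ± 0.31, adjusted p = 0.70) and 8.61 ± 0.933 CPM for IL-13 (−0.26 ± 0.31, adjusted p = 0.64). Ccr2 had 7, 7 and 11 counts with IL-4 and 5, 11 and 10 with IL-13, which overlapped control and did not pass the filter. Ccr7 had 0 counts in all 6 libraries, which allows up to 0.609 CPM with IL-4 and 0.590 CPM with IL-13.

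At the shared time of 12 h, IFN-LPS was set against both cytokines in a fit of all 21 BMDM libraries. These groups, like 24 h against 12 h, lie on both sides of the difference in antisense share given above. That difference and the effect of treatment or time cannot be told apart here. Against IL-4, 3 of 7 receptors were higher with IFN-LPS (Cx3cr1, Ccr7, Ccrl2; 22.5% of all 9841 genes) and 2 lower (Ccr3, Cxcr4; 20.6%). Against IL-13, 2 were higher (Ccr7, Ccrl2; 22.2%) and 2 lower (Ccr3, Cxcr4; 20.9%). Ccrl2 was 22.5-fold above IL-4 (log2 4.49 ± 0.13, adjusted p = 6.0e-38) and 27.9-fold above IL-13 (4.80 ± 0.14, adjusted p = 7.2e-39). Cxcr4 was 21.4-fold under IL-4 (−4.42 ± 0.16, adjusted p = 4.5e-33) and 20.8-fold under IL-13 (−4.38 ± 0.16, adjusted p = 7.5e-33). Ccr3 was 8.96-fold under IL-4 (−3.16 ± 0.60, adjusted p = 8.9e-06) and 8.95-fold under IL-13 (−3.16 ± 0.60, adjusted p = 8.0e-06), again from the 4 counts of 12 h library 3. Ccr3 passed the filter through libraries of other conditions, IL-4 and IL-13 among them, where it was high. Ccr7 was at least 25.5-fold above IL-4 and 26.4-fold above IL-13, and it passed the filter through the IFN-LPS libraries alone.

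Cx3cr1, low in both kinds of activation, was 1.96-fold above IL-4 at 12 h of IFN-LPS (log2 0.97 ± 0.32, adjusted p = 0.0075). Its libraries overlapped, and the call was lost without 12 h library 3 (log2 0.58, adjusted p = 0.19) or IL-4 library 1 (0.69, adjusted p = 0.086) or 3 (1.019, adjusted p = 0.015) and with plain totals (0.62, adjusted p = 0.083). Against IL-13 it was log2 −0.46 ± 0.25 (adjusted p = 0.13), and −0.84 (adjusted p = 0.0032) with plain totals. Ccr1 did not pass the threshold against IL-4 (log2 0.39 ± 0.27, adjusted p = 0.24) or IL-13 (−0.19 ± 0.25, adjusted p = 0.56), but without 12 h library 3 it was lower than with IL-13 (−0.86, adjusted p = 0.0012). Ccr2, tested in this fit, was log2 −0.92 ± 0.52 against IL-4 (adjusted p = 0.13) and −0.91 ± 0.51 against IL-13 (adjusted p = 0.13).

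RAW264.7 cells carried another set of the receptors. Untreated, they held Cx3cr1 at 145 and 176 CPM, Ccr2 at 13.3 and 6.55 CPM, Ccr1 at 4.59 and 6.09 CPM and Ccrl2 at 1.38 and 0.936 CPM. Cxcr4 had 4 and 0 counts, and Ccr3 and Ccr7 had none. Against control BMDMs in the fit of all 25 libraries, 2 of 7 receptors were higher (Cx3cr1, Ccr2; 31.9% of all 10612 genes) and 4 lower (Ccr1, Ccr3, Ccrl2, Cxcr4; 33.7%). Ccr7 had 0 counts in both groups and could not be called. Cx3cr1 was 2.87-fold higher (log2 1.52 ± 0.14, adjusted p = 1.7e-15) and Ccr2 2.33-fold higher (1.22 ± 0.42, adjusted p = 0.0077). Cxcr4 was lower (fitted log2 −8.87 ± 0.26, adjusted p = 5.6e-42), and it was −12.4 without control library 1, which held all 4 of its counts, and −7.96 without library 2. Ccrl2 was 33.2-fold lower (−5.05 ± 0.35, adjusted p = 2.2e-21), Ccr1 2.87-fold lower (−1.52 ± 0.45, adjusted p = 0.0026) and Ccr3 at least 14.4-fold lower (adjusted p = 4.2e-10). Cxcr4 and Ccr3 passed the filter through BMDM libraries alone, so their being called lower was partly set by the filter. The Ccr2 call was lost without RAW264.7 control library 1 (log2 0.64, adjusted p = 0.31) or BMDM control library 1, 2 or 3 (1.10 to 1.35, adjusted p = 0.012 to 0.033), and the Ccr1 call without RAW264.7 control library 1 (adjusted p = 0.040) or 2 (0.010421) or BMDM control library 2 or 3 (0.012).

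LPS for 4 h in RAW264.7 raised 3 of 4 tested receptors (Ccr1, Ccr2, Ccrl2; 15.1% of all 9406 genes tested) and lowered 1 (Cx3cr1; 12.8%). Ccrl2 went from 1.38 and 0.936 CPM to 26.0 and 35.5 CPM, 28.8-fold higher (log2 4.85 ± 0.40, adjusted p = 9.0e-32). It had 5 counts in RAW264.7 control and passed the filter through the LPS libraries. Ccr1 went from 4.59 and 6.09 CPM to 31.1 and 43.1 CPM, 7.85-fold higher (2.97 ± 0.27, adjusted p = 9.7e-26). Its control libraries alone did not meet the filter, so Ccr1 too passed through the LPS libraries, where it was high. Cx3cr1 went from 145 and 176 CPM to 92.4 and 105 CPM, 1.44-fold lower (−0.52 ± 0.11, adjusted p = 1.1e-05). Ccr2 went from 13.3 and 6.55 CPM to 18.6 and 15.5 CPM (0.94 ± 0.29, adjusted p = 0.0044). In all 4 the treated libraries lay outside the control range. The Ccr2 call rested on single libraries, being log2 1.53 (adjusted p = 0.00067) without control library 1, 0.55 (adjusted p = 0.20) without control library 2, 0.80 (adjusted p = 0.091) without LPS library 1 and 1.10 (adjusted p = 0.010068) without LPS library 2, and DESeq2 did not make it (adjusted p = 0.16). The Cx3cr1 call was lost without control library 2 (log2 −0.36, adjusted p = 0.018) and with DESeq2 (adjusted p = 0.014). Ccr3, Ccr7 and Cxcr4 had at most 1 count in a treated library and failed the filter.

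The change with LPS in RAW264.7 was set against the change with IFN-LPS at 4 h in BMDMs by a test of the difference itself, for which 25.0% of all 10612 genes were called. The stimuli are not the same, since the cell line received no IFN-γ, so cell type and stimulus cannot be told apart. Cx3cr1 fell less in RAW264.7 (difference in log2 change 2.70 ± 0.34, adjusted p = 5.0e-10) and Ccr1, higher in RAW264.7 and at log2 −0.02 in BMDMs, differed as well (2.89 ± 0.55, adjusted p = 5.7e-05). Ccr2 also differed (2.79 ± 0.83, adjusted p = 0.0057), from 3 counts in the 4 h BMDM libraries. For Ccrl2, which rose in both, the difference was log2 −1.024 ± 0.76 (adjusted p = 0.36), which does not show that the changes were alike. For Ccr3, Ccr7 and Cxcr4 the counts in RAW264.7 were too few for a statement.

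Set in order of level, Ccrl2 was highest at 1 h of IFN-LPS, then at 4, 12 and 24 h, each range separate from the next. The control, RAW264.7 LPS, IL-4 and IL-13 groups followed with overlapping neighbours, and untreated RAW264.7 was lowest. Cxcr4 was highest in control BMDMs, and IL-4, IL-13 and 1 h of IFN-LPS followed with overlapping ranges. Cx3cr1 was highest in untreated RAW264.7, then in RAW264.7 with LPS and in control BMDMs, each separate, and from 24 h of IFN-LPS downward the neighbours overlapped. The 5 highest groups of Ccr1 overlapped with their neighbours: IFN-LPS 1 h (40.9 ± 7.83 CPM), RAW264.7 with LPS (37.1 ± 8.44), IL-13 (35.5 ± 2.05), IFN-LPS 12 h (23.4 ± 13.9) and IL-4 (23.3 ± 5.14). Ccr2 was highest in RAW264.7 with LPS (17.0 ± 2.20 CPM), Ccr3 in control BMDMs, and Ccr7 at 24 h of IFN-LPS with a range that overlapped 12 h.

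Most ligands of these receptors that could be tested rose in the IFN-LPS course. Of 15 listed ligands, 10 passed the filter there. Cx3cl1, Ccl5 and Ccl12 had 8, 4 and 0 counts in control. Ccl2 and Ccl7, with 28 and 30 counts in control, did not meet the filter through the control libraries either. These ligands passed through the IFN-LPS libraries, where they were high, so their being called higher was partly set by the filter. By edgeR, 7 were higher and 0 lower at 1 h (0 lower at an unadjusted p under 0.05 as well), at 4 h 8 were higher and 1 lower, at 12 h 7 and 2, and at 24 h 7 and 1. Over all genes the shares called higher at these times were 14.7, 26.0, 23.9 and 23.9%, and those called lower 11.3, 25.6, 23.4 and 21.3%. Ccl3 and Ccl4, listed here as ligands of Ccr1, went from 32.9 ± 6.36 and 43.8 ± 6.40 CPM in control to 4301 ± 491 and 3950 ± 348 CPM at 4 h (adjusted p = 3.2e-31 and 4.4e-19). Ccl5, a ligand of Ccr1 and Ccr3, went from 0.789 ± 0.347 CPM (4 counts) to 5349 ± 99.2 CPM at 24 h (adjusted p = 3.6e-39), and the Ccr2 ligand Ccl12 from 0 counts to 18.0 ± 3.25 CPM at 4 h (adjusted p = 9.9e-13). Ccl6 was called lower at 4, 12 and 24 h, and Cxcl12 at 12 h. Cxcl12, the Cxcr4 ligand, was at 4.61 to 13.1 CPM in BMDM group means and had 0 counts in RAW264.7, and Ccl19, Ccl21a and Ccl11, ligands of Ccr7 and Ccr3, had no more than 1 count in any group, as Rarres2, which encodes chemerin, had no more than 2. Over the ligands tested, the median log2 change at the 4 times was 3.67, 5.37, 3.59 and 3.46. It was −0.07 to 0.02 over all genes. The ligands that passed the filter through the IFN-LPS libraries were among those tested.

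With IL-4 and with IL-13, 4 of 7 tested ligands were higher (Ccl2, Ccl6, Ccl7 and Ccl9) and 2 lower (Ccl3 and Ccl4). Of all genes, 4.38% were higher and 3.25% lower with IL-4, and 5.61% and 4.49% with IL-13. Ccl2 and Ccl7 passed the filter through the IL-4 and IL-13 libraries, where they were high, so their being called higher was partly set by it. For IL-13 against control, Ccl7 went from 5.90 ± 1.48 to 30.4 ± 2.12 CPM (adjusted p = 3.9e-09), Ccl2 from 5.50 ± 1.82 to 21.3 ± 4.23 CPM (adjusted p = 9.7e-07), Ccl6 from 44.7 ± 4.91 to 168 ± 11.6 CPM (adjusted p = 4.8e-18) and Ccl9 from 91.1 ± 15.8 to 256 ± 23.2 CPM (adjusted p = 5.9e-16). In RAW264.7 LPS raised 7 of 8 tested ligands and lowered 0 (0 at an unadjusted p under 0.05 as well by edgeR), beside 15.1% and 12.8% of all genes. Ccl5, Ccl7 and Ccl12 had 0, 5 and 1 counts in RAW264.7 control and passed the filter through the LPS libraries. There Ccl4 went from 29.5 ± 5.33 to 1183 ± 72.8 CPM, Ccl7 from 1.17 ± 1.00 to 169 ± 10.1 CPM (n = 2), Ccl5 from 0 to 38.0 ± 2.82 CPM and Ccl12 from 0.230 ± 0.325 to 9.45 ± 5.68 CPM.

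**Figure D4:**
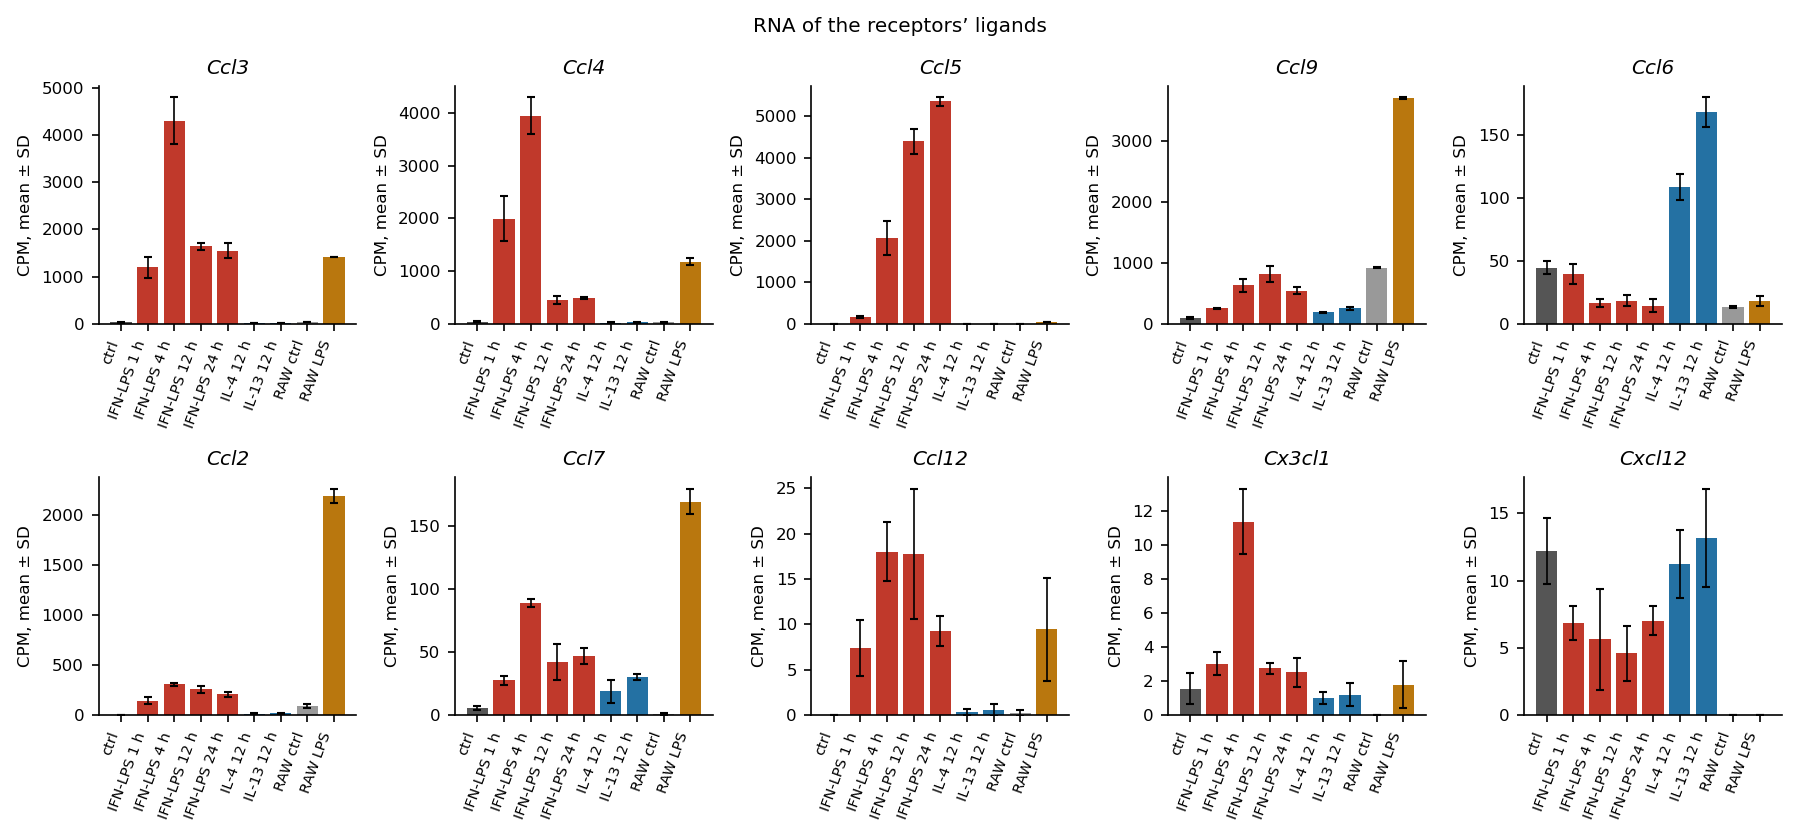
Mean CPM without Rn45s (bars, linear axes that differ between panels, error bars are SD over 3 BMDM or 2 RAW264.7 libraries) of 10 ligands of the receptors by condition. Ccl3 and Ccl4 peaked at 4 h of IFN-LPS at 4301 and 3950 CPM, Ccl5 was highest at 24 h at 5349 CPM, and Ccl6 was highest with IL-13 at 168 CPM.

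Of 23 other receptors of chemokines and related chemoattractants, 8 passed the filter in the IFN-LPS course, and 4 of them were higher and 1 lower at 1 h, 3 and 2 at 4 h, 4 and 4 at 12 h, and 3 and 4 at 24 h. The shares of all genes called higher and lower were 14.7 and 11.3%, 26.0 and 25.6%, 23.9 and 23.4%, and 23.9 and 21.3%. The formyl peptide receptors Fpr2 and Fpr1 had 0.198 and 0.393 CPM in control and 528 ± 47.5 and 364 ± 19.2 CPM at 24 h (adjusted p = 1.6e-23 and 8.1e-08). With 1 and 2 counts in control, both passed the filter through the IFN-LPS libraries, where they were high. The decoy complement receptor C5ar2 went from 15.6 ± 5.66 to 1.18 ± 0.503 CPM at 4 h (adjusted p = 1.8e-07) and Cxcr3, a receptor of interferon-induced chemokines, from 13.6 ± 0.606 to 2.53 ± 0.850 CPM at 24 h (adjusted p = 1.9e-06). C5ar2 passed the filter through the control and 1 h libraries. With IL-13, Cxcr3 (2.18 ± 0.435 CPM, adjusted p = 1.1e-06) and C5ar1 (201 ± 34.5 from 406 ± 30.6 CPM, adjusted p = 1.6e-12) were lower, and both were also lower with IL-4. Cxcr3 passed the filter of that fit through the control libraries, where it was high. LPS in RAW264.7 raised 2 of 4 (15.1% of all genes), C5ar1 to 472 ± 2.86 from 138 ± 13.8 CPM (adjusted p = 2.5e-104) and C3ar1 to 142 ± 0.954 from 95.6 ± 11.5 CPM (adjusted p = 3.8e-10).

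Among 28 genes of receptor signalling (G proteins, arrestins, receptor kinases, RGS proteins and effectors), 27 were tested in the IFN-LPS course: 5 were higher and 3 lower at 1 h, 11 and 12 at 4 h, 11 and 9 at 12 h, and 10 and 7 at 24 h. Of all genes, 14.7 and 11.3% were called higher and lower at 1 h and 26.0 and 25.6% at 4 h. The shares were 23.9 and 23.4% at 12 h, and 23.9 and 21.3% at 24 h. The counts of 5 and 3 at 1 h stand near the background. Arrb1, an arrestin that ends receptor signalling, fell from 289 ± 15.04 to 23.5 ± 2.69 CPM at 4 h (adjusted p = 7.0e-26). The G protein brakes Rgs18 and Rgs2 fell from 27.4 ± 7.78 to 0.623 ± 0.603 CPM at 4 h (adjusted p = 1.0e-11) and from 204 ± 5.23 to 8.74 ± 1.24 CPM at 24 h (adjusted p = 3.1e-27), while Rgs1 rose from 136 ± 21.01 to 873 ± 51.9 CPM at 1 h (adjusted p = 8.1e-21). With IL-13, Rgs16 rose from 5.89 ± 2.07 to 20.5 ± 6.06 CPM (adjusted p = 1.2e-05), and Gng2, Rgs1 and Arrb2 fell to 102 ± 6.10, 93.1 ± 5.35 and 117 ± 22.2 CPM (adjusted p = 4.6e-08, 0.00013 and 0.0050). In RAW264.7, LPS raised 4 and lowered 8 of 26 (15.1 and 12.8% of all genes), with Rgs16 from 1.16 ± 0.344 to 96.5 ± 20.2 CPM and Arrb1 from 200 ± 19.8 to 52.1 ± 7.95 CPM. Rgs16 passed the filter there through the LPS libraries, where it was high, and in the cytokine fit it also needed treated libraries to pass.

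By likeness of pattern (Pearson r of log2 CPM over the 21 BMDM libraries, which share controls and treatments, among 9841 genes), the genes nearest to Ccrl2 were Tnfaip3 (r = 0.988), Kcna3 (0.988) and Cxcl2 (0.986). Nearest to Cxcr4 were Arhgap19 (0.991), Fam105a (0.990) and Trp53inp1 (0.989), and nearest to Ccr7 were Slfn4 (0.992), Epsti1 (0.988) and Ms4a4c (0.988). Ccr3 was nearest to Itga6 (0.956), Hgf (0.955) and Fabp4 (0.947), and Ccr2 to Sdcbp (0.946), Tm9sf3 (0.941) and Il7r (0.931). Cx3cr1 had Hist1h2ae (0.892), Tmem43 (0.890) and Dbndd2 (0.857). For Ccr1, Id2 (0.839) and C330007P06Rik (0.836) were among the nearest.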

How the data were processed

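Gene counts were deposited by the authors as the per-gene output of STAR, 1 table per library, with unnormalised counts for each strand. Per the methods and labels, ribosomal RNA was depleted, libraries were directional, bases were called with CASAVA 1.8.2, and reads were trimmed with Trimmomatic 0.33 and aligned to mm10 with STAR 2.5.1. The labels list polyA RNA, unlike that protocol. The annotation release is not given in the sources used here. Rows that name no gene were left out, and 62.7 to 69.1% of the reads on that strand setting fell in no gene. Sense counts were used without Rn45s. Folds and adjusted p-values are from edgeR 4.0.16 (R 4.3.3), with filterByExpr at a minimum count of 10, TMM, the robust quasi-likelihood test and Benjamini-Hochberg adjustment. The time course (15 libraries), the cytokines (9), all BMDMs (21), RAW264.7 (4) and all 25 libraries were fitted separately, as each comparison needed. Calls were made at 0.01. The procedure was tested on simulated data. DESeq2 1.42.0, limma 3.58.1, pandas 2.3.3, numpy 2.4.6 and matplotlib 3.10.9 were also used.

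The receptors and gene lists were chosen with earlier results of these data known. Other named genes are the list members with the largest called changes whose groups did not overlap and whose higher mean was at least 5 CPM, up to 4 per list and kind of activation. The interaction between cell types and the fit without TMM were added after seeing the data. Replicates of a group differed by more than sampling noise (chi-square per degree of freedom 1.33 to 4.93 over 23 pairs), so none was counted as a repeat. BMDMs treated with LPS alone were not analysed here. Floors and intervals cover counting error only, and a floor is 3 counts over a group. One further gene is not reported here.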

Additional observations from a re-analysis of the deposited data

Results flagged for a closer look

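Several differences between groups passed a test of the difference itself. The change of Cx3cr1 with IL-13 minus that with IL-4 was log2 1.4183 (adjusted p = 0.0067). The change with LPS in RAW264.7 minus the change with IFN-LPS at 4 h in BMDMs was log2 2.69936 for Cx3cr1, 2.89409 for Ccr1 and 2.7926 for Ccr2. The RAW264.7 cells received no IFN-γ, so cell type and stimulus cannot be told apart.

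Antisense counts, which no comparison used, were found at Ccrl2 with IFN-LPS. Control had 0, but beside 176 sense counts, too few to show a share of this size. There were 20 at 1 h (4 to 9 a library, 0.210% of all Ccrl2 counts), 17 at 4 h (3 to 8 a library, 0.264%) and 11 at 12 h (3 to 4 a library, 0.395%), beside 9500, 6422 and 2776 sense counts, and 1 at 24 h (0.0622%) beside 1608. In the control, 1, 4 and 12 h libraries 1.17 to 1.41% of all counts without Rn45s lay on the antisense strand.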

How the results depend on the processing

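Requiring 10 counts in every sample left fewer receptors to test. Called receptors were then 2, 1, 2 and 1 after 1, 4, 12 and 24 h of IFN-LPS, 1 for 4 h against 1 h, 2 for 12 h against 4 h, 0 for IL-13 against IL-4, 1 for 12 h against IL-4, 1 against IL-13 and 1 for RAW264.7 against BMDM control. With a fold cutoff added, 2 were called at 1 h (log2 1.5), 2 with IL-13 (log2 0.7) and 2 in RAW264.7 with LPS (log2 2). DESeq2 called 2 in RAW264.7 with LPS, and gave Cx3cr1 no adjusted p for IL-13 against IL-4. Without 1 library, counts ranged from 3 to 6 for 12 h against 4 h, 0 to 1 for IL-13 against IL-4 and 2 to 4 in RAW264.7 with LPS.

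Directions turned only in differences that were not called. Ccr1 at 4 h against control was 0.0021 with DESeq2 size factors, 0.0174 in the fit of 21 BMDM libraries and −0.1857 to 0.1215 without 1 library. Ccr3 for IL-13 against IL-4 was 0.0207 with plain totals and −0.1533 to 0.0991 without 1 library. Without 1 library, Ccrl2 for 4 h against 1 h ranged from −0.0895 to 0.0374, Cxcr4 for IL-13 against IL-4 from −0.122 to 0.022, and Ccr1 for 12 h against IL-4 from −0.2838 to 0.6505 and against IL-13 from −0.8617 to 0.0729. For 24 h against 12 h the ranges were −0.0204 to 0.5261 (Cx3cr1), −1.4193 to 2.9144 (Ccr3), −0.1208 to 0.309 (Ccr7) and −0.0725 to 0.5385 (Cxcr4).

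DESeq2 kept the side of the threshold for 70 receptor changes and did not call 6 that edgeR did: Ccr1 with IL-4, Ccrl2 with IL-13, Cx3cr1 for 12 h against IL-4, Cx3cr1 and Ccr2 in RAW264.7 with LPS, and Ccr2 for RAW264.7 against BMDM control. Fits of only the groups compared lost Ccr1 at 12 h against control and against 4 h, Ccrl2 with IL-13 and Cx3cr1 for 12 h against IL-4. Ccr7 did not pass the count filter in those fits for 4 h against control and against 1 h, nor did Ccr3 for 12 h against 4 h. Called receptors in these comparisons were then 3, 3 and 4. Ccr1 for 12 h against 4 h was also lost with DESeq2 size factors, with counts of both strands and with Rn45s kept.

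Replicate numbers did not pair the samples: in the time course, same-numbered libraries deviated together with a mean correlation of 0.0213 (−0.0703 to 0.1757) and others of −0.0107. The replicate block changed 1 call, Ccr1 with IL-4 (log2 0.83, adjusted p = 0.010231), so that 2 receptors were called with IL-4. The cause of these changes was not tested. Depth limits Ccr2, Ccr3 and Ccr7, which had at most 50 counts in a library.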
